A study of Mus musculus with 8 samples.

Results

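Transcript levels of 5 genes that carry glucose into the cell or act on glucose-6-phosphate were followed in pancreatic islets of obese and weight-cycled mice. The genes were Slc2a2 and Slc2a1, which encode facilitative glucose transporters, G6pc2 and G6pc3, which encode catalytic subunits of glucose-6-phosphatase, and Slc37a4, which encodes a glucose-6-phosphate transporter of the endoplasmic reticulum. They were picked by symbol, with earlier results of these data known, and are 5 of the 35596 genes in the table. All 5 were matched by gene ID, and 4 of them reached the mean level of 1 TPM at which genes were tested. None of the 5 encodes a kinase, so the phosphorylation step itself is not described by them, and the hexose kinase genes listed further on do not include every kinase of glucose in beta cells.

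The islets came from male C57BL/6J mice, and polyadenylated RNA was sequenced from 4 libraries per group. Mice of the obese group ate a 10% fat diet during 9 weeks and a 60% fat diet during the next 18 weeks. Mice of the weight-cycled group ate the 60% fat diet for 9 weeks, changed to the 10% fat diet for 9 weeks and returned to the 60% fat diet for the last 9 weeks. The order of the diets and the length of the last high-fat period, 18 or 9 weeks, differ together between the groups and cannot be told apart. The sources used here do not give the ages of the mice. Neither do the labels say whether a library stands for 1 mouse or for a pool, so that a p-value reflects only how far libraries of a group differ, and that may be technical. Values are TPM, transcripts per 1000000, a level per transcript length relative to the library's total. How deeply each library was sequenced cannot be read from TPM and is unknown here, so counting error is not given.

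Glucose enters rodent beta cells down its gradient through GLUT2, the protein of Slc2a2, and is trapped there by phosphorylation to glucose-6-phosphate. The islet glucose-6-phosphatase encoded by G6pc2 turns part of the glucose-6-phosphate back into glucose inside the endoplasmic reticulum, after the transporter encoded by Slc37a4 has carried it across the membrane. G6pc3 and Slc37a4 are expressed in most tissues, and Slc2a1 encodes GLUT1, the transporter of red blood cells and of the blood-brain barrier.

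All 5 are protein-coding genes on the plus strand of build mm10. Slc2a2 (ENSMUSG00000027690.13) lies at chr3:28697903-28731359 and Slc2a1 (ENSMUSG00000028645.11) at chr4:119108711-119137983. G6pc2 (ENSMUSG00000005232.11) lies at chr2:69211073-69227841, Slc37a4 (ENSMUSG00000032114.9) at chr9:44396852-44402968 and G6pc3 (ENSMUSG00000034793.15) at chr11:102189620-102194081. Reads of these genes had few other places to go, since between 97.9% (Slc2a1) and 100% (G6pc2 and Slc37a4) of the distinct 31-base words in their annotated transcripts occur in no other gene's transcripts. The 75 shared words of Slc2a1 all lie in an antisense transcript, Gm12868, and Slc2a2 also has an antisense neighbour within its limits, 1700112D23Rik. Whether the authors' quantification used strand is not given in the sources used here, so reads of these antisense pairs may not be told apart.

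The 250 bases in front of the start site of Slc2a2 and of the upstream start site of G6pc2 are shown because these were the most abundant members and differed in their response. They are RefSeq windows of build GRCm38.p6, chr3:28697653-28697902 and chr2:69210823-69211072, read on the plus strand. Capitals mark the letters searched for on both strands.
Slc2a2: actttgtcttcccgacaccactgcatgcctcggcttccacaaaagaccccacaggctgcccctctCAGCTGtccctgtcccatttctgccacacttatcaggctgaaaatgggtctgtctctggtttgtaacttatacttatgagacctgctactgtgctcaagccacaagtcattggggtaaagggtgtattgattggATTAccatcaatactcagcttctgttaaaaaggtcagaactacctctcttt
G6pc2: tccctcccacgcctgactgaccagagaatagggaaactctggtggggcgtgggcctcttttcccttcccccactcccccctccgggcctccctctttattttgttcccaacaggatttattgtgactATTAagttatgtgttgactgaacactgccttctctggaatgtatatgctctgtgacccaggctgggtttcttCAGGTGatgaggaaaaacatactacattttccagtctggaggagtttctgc
Each window holds 1 homeodomain core (TAAT, or ATTA on the other strand) and 1 E-box (CANNTG). In the Slc2a2 window the homeodomain core starts at position -51 and the E-box at -185, counted back from the start site. In the G6pc2 window these positions are -123 and -51. Both motifs are common, as 54.9% of 32817 RefSeq windows of this length hold the first and 66.2% the second. Searches for TATAAA (12.4% of windows), TGCTGA (MAF core, 16.1%), TGTTTA (forkhead core, 12%), GTTAAT (HNF1 half-site, which contains the homeodomain core, 6.44%), GGGCGG (GC box, 32.7%) and CACGTG (a form of the E-box, 6.02%) found none of these letters in the windows printed. RefSeq also gives G6pc2 a second start site further downstream, and its window (chr2:69219699-69219948, not printed) holds 3 homeodomain cores, 4 E-boxes and 2 MAF cores, the latter at -121 and -27. The printed windows differ little in base composition, with a GC content of 47.2% for Slc2a2 and 50% for G6pc2 against a median of 52.4% over all windows. The window of Slc2a1 had 66.4% GC and 2 GC boxes, and that of G6pc3 had 58.8% GC and 2 CACGTG matches, at -99 and -79.

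The members were far apart in abundance. Over the 8 libraries G6pc2 ranged from 389.9 to 539 TPM, Slc2a2 from 25.5 to 91.5, Slc37a4 from 11.5 to 17.0, G6pc3 from 7.45 to 10.6 and Slc2a1 from 0.533 to 1.23. These ranges do not overlap, so the order of the members was the same in every library. The libraries had the makeup of islets: the 9 beta-cell markers together made up between 785459 and 813191 of every 1000000 transcripts.

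**Figure D1:**
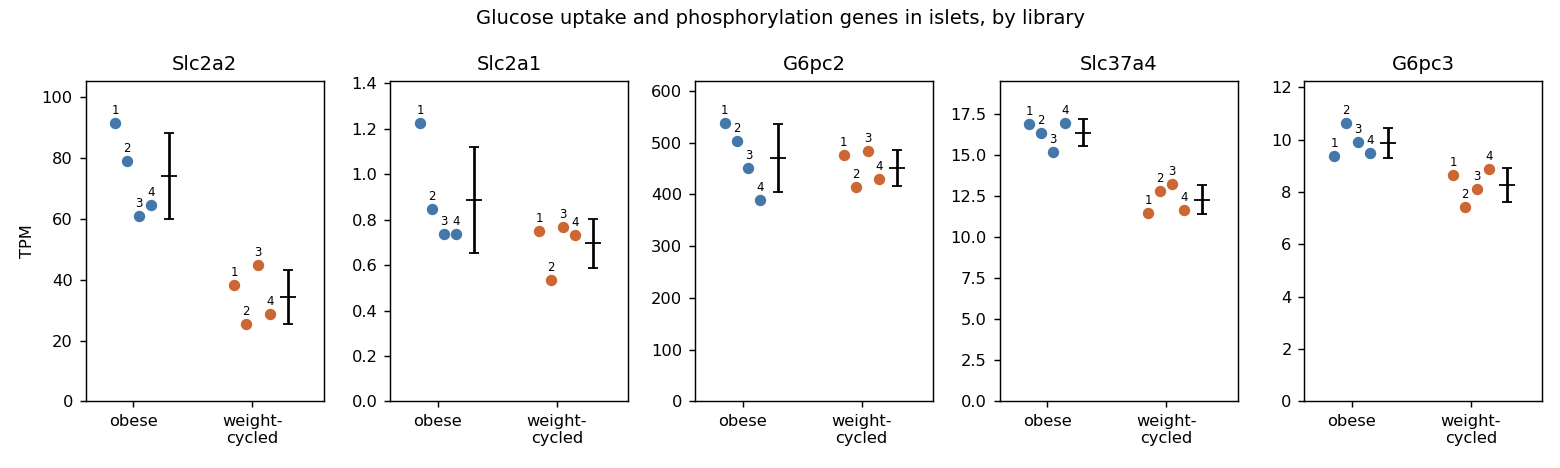
TPM of the 5 members in each library, with obese libraries in blue and weight-cycled libraries in orange, numbered by replicate. Horizontal bars are group means and vertical bars SDs (n = 4), and each panel has its own axis from 0. The groups are apart for Slc2a2, Slc37a4 and G6pc3 and overlap for Slc2a1 and G6pc2.

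Slc2a2, the main glucose transporter gene of rodent beta cells, changed most among the members. Its level was 91.5, 79.0, 60.8 and 64.4 TPM in obese replicates 1 to 4 and 38.1, 25.5, 44.8 and 28.9 TPM in weight-cycled replicates 1 to 4. Every weight-cycled library lay below every obese one, with weight-cycled replicate 3 the nearest to the obese range. The weight-cycled mean of 34.3 ± 8.79 TPM was 46.4% of the obese mean of 73.9 ± 14.1 TPM (SD, n = 4 each). The log2 fold change, on the log2(TPM + 1) scale as all fold changes here, was -1.10 (SE 0.176, limma adjusted p = 0.0165). Of the 8127 genes tested, 8 had a more negative value. With array weights, which weight libraries by their spread, the value was -0.73 (limma adjusted p = 0.00137), and 183 genes lay lower. That fit called 4499 of the 8127 genes lower and 296 higher. In such bulk samples fewer beta cells and less Slc2a2 RNA per beta cell cannot be told apart.

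Fold changes of the tested genes were centred below 0 in these data, and the change of Slc2a2 has to be read against that. As TPM are shares of a fixed total, this is a relative shift. The median log2 fold change of the tested genes was -0.26, and relative to it Slc2a2 lay at -0.84. Limma called 23.9% of the tested genes lower and 1.21% higher in weight-cycled islets. Slc2a2 also passed where the median was brought near 0, by median-of-ratios scaling (log2 fold change -0.78, limma adjusted p = 0.0394), by quantile scaling (-1.01, 0.0232) and by length correction, which removes the trend of each library with transcript length (-0.71, 0.0390). Under these scalings calls of lower genes were rare, at 0.571%, 1.53% and 1.53% of those tested. The call of Slc2a2 was lost without obese replicate 1 (-0.99, limma adjusted p = 0.0763), without weight-cycled replicate 4 (-1.03, 0.0605) and without the filter on low values (adjusted p = 0.0912). In either direction, those fits called 0 of 8010, 10 of 8217 and 0 of 19482 genes tested. At an unadjusted p under 0.05 they held 2670, 3029 and 5686 genes.

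Transcript length moved with the groups, and Slc2a2 has long transcripts. When tested genes were sorted by length into 5 equal bins, the median log2 fold change went from -0.14 in the shortest bin to -0.36 in the longest. Slc2a2, with 5569 bases, falls in the longest bin, whereas G6pc2 (1820.5 bases), Slc37a4 (1719.5) and G6pc3 (1488.5) fall in the middle bin, whose median was -0.25. Across genes, the deviation of a library from the gene means had a rank correlation with length of 0.184 to 0.375 in obese libraries, 0.345 in weight-cycled replicate 1 and -0.400 to -0.283 in the other weight-cycled libraries. The first principal component, with 66.8% of the variance, likewise put weight-cycled replicate 1 at -7.98, inside the obese range of -23.3 to -5.03, and the other weight-cycled libraries between 13.8 and 30.6. For Slc2a2 this library was not an exception, since its 38.1 TPM lies between those of the other weight-cycled libraries. Without it the log2 fold change of Slc2a2 was -1.16 (SE 0.176, limma adjusted p = 0.000774), in a fit that called 54.4% of genes lower and 3.35% higher. With the length trend removed as well, the value was -0.65 (limma adjusted p = 0.0174), where 1087 of 8064 genes were called lower and 1031 higher.

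Slc2a1, the ubiquitous transporter gene, was close to the limit of 1 TPM and was not tested by limma. It measured 1.23, 0.845, 0.738 and 0.736 TPM in the obese and 0.751, 0.533, 0.767 and 0.731 TPM in the weight-cycled libraries. The groups overlapped, with obese replicate 1 the highest and weight-cycled replicate 2 the lowest. The means were 0.886 ± 0.232 and 0.695 ± 0.109 TPM (SD, n = 4 each). The difference in log2 TPM was -0.33 and did not pass an exact permutation test, which was two-sided and chosen after the values were seen (p = 0.229). On the log2(TPM + 1) scale the difference was -0.15 as deposited and -0.0026 after median-of-ratios scaling.

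Set against each other within a library, a measure that no factor applied to a whole library alters, the transporters changed unequally. A trend with transcript length can still alter such a ratio, and that of Slc2a2 to Slc2a1 was not computed after length correction. Slc2a2 was at 74.6, 93.5, 82.4 and 87.5 times the level of Slc2a1 in the obese libraries and at 50.8, 47.8, 58.3 and 39.5 times in the weight-cycled ones. These ratios did not overlap. The log2 ratio differed by -0.79, from 6.40 ± 0.138 (SD, n = 4) in the obese to 5.60 ± 0.234 in the weight-cycled libraries. An exact two-sided permutation test over the 70 assignments of libraries gave p = 0.0286, the smallest it can give, and an adjusted p of 0.0429 over the 6 ratios compared.

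Among the glucose and hexose transporter genes, Slc2a5 lay in the same range as Slc2a2. Slc2a5, which encodes the fructose transporter GLUT5, measured 65.3 to 84.1 TPM across obese libraries and 46.2 to 70.03 TPM across weight-cycled ones. All 3366 of its 31-base words are its own, and it exceeded Slc2a2 in every library other than obese replicate 1. It fell on TPM as deposited (log2 fold change -0.41, SE 0.137, limma adjusted p = 0.0473) but did not pass after median-of-ratios scaling (-0.09, adjusted p = 0.557) or length correction (-0.10, adjusted p = 0.454). With a library left out it passed only without weight-cycled replicate 1 (limma adjusted p = 0.00304, otherwise 0.05005 to 0.135). The fit without that library called 54.4% of genes lower, and the others called 0 to 1728 genes in either direction. Of the summed TPM of 12 Slc2a genes, the obese libraries gave 47.6% ± 2.19 (SD, n = 4) to Slc2a2 and 48.2% ± 1.75 to Slc2a5, and the weight-cycled libraries gave 35.5% ± 4.40 (SD, n = 4) and 58.4% ± 3.94. The shares are tied, so that of Slc2a5 rose although its own mean went from 74.4 to 55.9 TPM. The ratio of Slc2a2 to Slc2a5 was 1.11, 0.940, 0.932 and 0.980 in obese libraries and 0.544, 0.508, 0.780 and 0.625 in weight-cycled ones. These values did not overlap either, with a log2 difference of -0.71 (exact two-sided permutation p = 0.0286, the smallest possible, for a ratio chosen after its values were seen).

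Slc2a6 moved the other way. This gene of a lysosomal hexose transporter measured 0.613, 1.41, 1.07 and 1.13 TPM in obese and 1.81, 1.77, 1.80 and 1.83 TPM in weight-cycled libraries. It was higher in every weight-cycled library, with a log2 fold change of 0.46 and an SE of 0.126 (limma adjusted p = 0.0357). It also passed after median-of-ratios scaling (0.65, adjusted p = 0.0413), quantile scaling (0.69, 0.0227) and length correction (0.71, 0.0294), and missed the threshold after rescaling without hormone, acinar and mitochondrial genes (0.74, 0.0515) and without a filter (adjusted p = 0.0974). On TPM as deposited the call was also lost without obese replicate 1 (0.35, limma adjusted p = 0.109), obese replicate 2 (0.0909), obese replicate 3 (0.0702), weight-cycled replicate 2 (0.0974), weight-cycled replicate 3 (0.0766) or weight-cycled replicate 4 (0.0880). Those fits without a library called 0 to 71 of the 8007 to 8238 genes tested, in either direction. Of the 17 other transporter genes listed, 4 were tested. Slc2a8 (log2 fold change -0.32, limma adjusted p = 0.107) and Slc50a1 (0.10, adjusted p = 0.376) did not pass. The median over the 4 was -0.11 on TPM as deposited, 0.16 after median-of-ratios scaling, 0.12 after quantile scaling and 0.07 after length correction. Slc2a3, the high-affinity transporter gene of neurons, and Slc2a4, the insulin-responsive transporter gene of muscle and fat, stayed under 1 TPM, with means over all libraries of 0.191 and 0.0857 TPM.

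G6pc2, the islet glucose-6-phosphatase gene, was the most abundant member and did not pass the test. It measured 539, 504, 450.3 and 389.9 TPM in obese and 477, 414, 484 and 430.2 TPM in weight-cycled libraries. All weight-cycled values fell inside the obese range. The means were 471 ± 64.9 and 451 ± 34.4 TPM (SD, n = 4 each), and the log2 fold change was -0.05 (SE 0.114, limma adjusted p = 0.711).

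The sign of the G6pc2 value depended on the scaling. It lay 0.20 above the median of all genes, and its log2 fold change was 0.28 after median-of-ratios scaling (limma adjusted p = 0.149), 0.19 after length correction (0.189) and -0.24 after quantile scaling (0.215). Calls of higher genes made up 1.29%, 1.78% and 2.13% of those tested under these scalings. After median-of-ratios scaling without weight-cycled replicate 1, a combination added after the data were seen, G6pc2 passed as higher (0.33, limma adjusted p = 0.0271). That fit called 20.2% of genes higher and 17.4% lower.

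Slc37a4, the gene of the transporter that feeds glucose-6-phosphate to both phosphatases, fell by a small and even amount. Obese libraries measured 16.9, 16.4, 15.2 and 17.0 TPM and weight-cycled libraries 11.5, 12.8, 13.2 and 11.6 TPM. The groups did not overlap, and neither group spread by more than 2 TPM. The weight-cycled mean of 12.3 ± 0.857 TPM was 75.2% of the obese mean of 16.3 ± 0.817 TPM (SD, n = 4 each). The log2 fold change was -0.39 (SE 0.0888, limma adjusted p = 0.0321), which is -0.13 relative to the median of all genes.

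The call of Slc37a4 was not kept where the shift in the median of the tested genes was removed. After median-of-ratios scaling the log2 fold change of Slc37a4 was -0.08 (limma adjusted p = 0.680), after quantile scaling -0.19 (0.239) and after length correction -0.15 (0.337). On TPM as deposited it also passed without obese replicate 4 (limma adjusted p = 0.0429) and without weight-cycled replicate 1 (0.00688). In that order, the fits called 1672 of 8121 and 4390 of 8064 genes lower. Leaving out any other library ended the call, with limma adjusted p between 0.0624 and 0.108. In either direction, the fits that ended it called 0 to 71 of the 8007 to 8238 genes tested.

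G6pc3, the phosphatase subunit gene found in most tissues, did not pass the test. It measured 9.37, 10.6, 9.93 and 9.50 TPM in obese and 8.67, 7.45, 8.12 and 8.87 TPM in weight-cycled libraries. The groups did not overlap, though weight-cycled replicate 4 came within 1 TPM of obese replicate 1. The means were 9.86 ± 0.576 and 8.28 ± 0.638 TPM (SD, n = 4 each), and the log2 fold change was -0.23, with an SE of 0.0933 (limma adjusted p = 0.0762), 0.03 above the median of all genes. It passed without weight-cycled replicate 1 (-0.25, limma adjusted p = 0.0453), in a fit that called 54.4% of genes lower and had a median of -0.32. Its value was 0.07 after median-of-ratios scaling (limma adjusted p = 0.620), 0.01 after quantile scaling (0.942) and -0.03 after length correction (0.815).

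In all, 2 of the 4 members tested were called lower on TPM as deposited, Slc2a2 and Slc37a4, against 23.9% of all genes. The groups did not overlap, with weight-cycled islets lower, for 3 of these 4, against 21.1% of all genes, while 1.3% of genes were apart in the other direction. After each of the 3 scalings that bring the median near 0, Slc2a2 alone among the 4 was called.

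**Figure D2:**
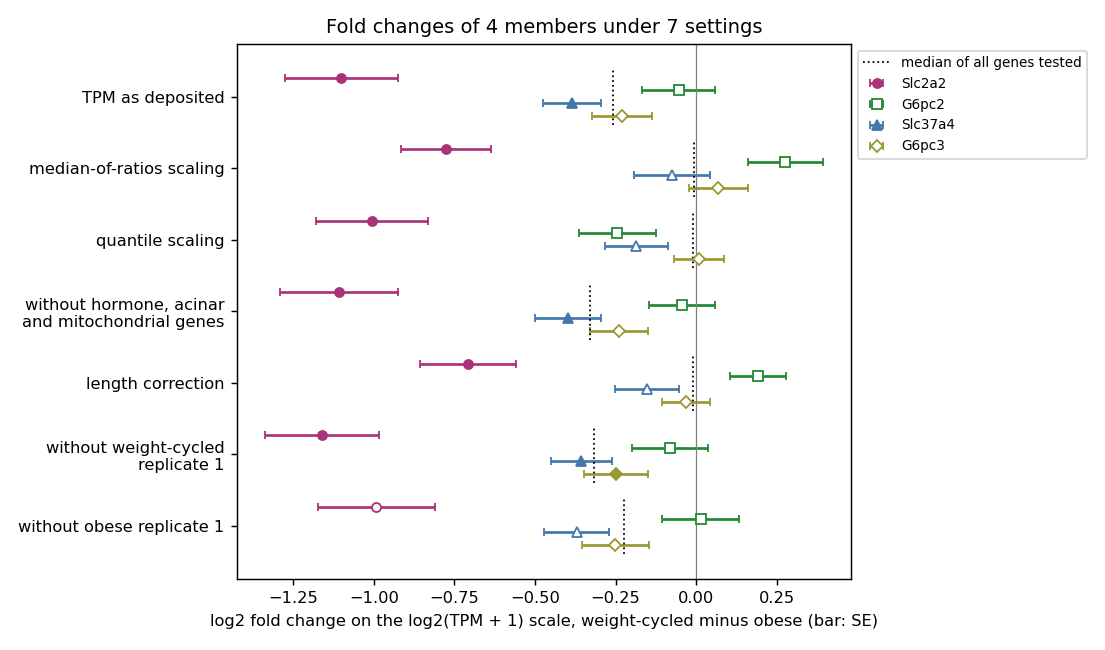
Log2 fold changes (weight-cycled minus obese) of the 4 members tested, under 7 settings, with SE bars. Filled symbols passed an adjusted p of 0.05 and dotted lines mark the median of all genes tested in that setting. Slc2a2 stays left of the median in each setting shown, while G6pc2 changes side of 0.

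The other ratios between members likewise do not depend on a library's scaling factor, though a trend with transcript length can alter them. Slc2a2 was at 0.170, 0.157, 0.135 and 0.165 times the level of G6pc2 in obese libraries and at 0.0800, 0.0616, 0.0926 and 0.0671 times in weight-cycled ones. The log2 ratio fell by 1.07, and the groups did not overlap. G6pc2 was at 31.9, 30.8, 29.7 and 23.0 times the level of Slc37a4 in obese and at 41.5, 32.3, 36.6 and 37.0 times in weight-cycled libraries. This ratio was higher by 0.36 on the log2 scale in weight-cycled islets, again without overlap, though obese replicate 1 and weight-cycled replicate 2 nearly met. For each of the 2 ratios the exact permutation test gave p = 0.0286 (0.0429 adjusted over the 6). After length correction the log2 differences were -0.90 and 0.34. G6pc2 relative to G6pc3 ran from 41.0 to 57.5 in obese and from 48.5 to 59.5 in weight-cycled libraries, which overlap (log2 difference 0.20, exact permutation p = 0.171, adjusted 0.206).

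Insulin transcripts offered another denominator from the same beta cells, but not an independent one. They make up most of each library's fixed total, so a ratio to them nearly repeats the TPM as deposited. Per 1000000 TPM of Ins1 and Ins2 together, Slc2a2 stood at 118, 103, 78.9 and 82.2 TPM in obese and at 49.1, 32.5, 56.8 and 38.3 TPM in weight-cycled libraries. The log2 ratio fell by 1.13 without overlap (exact permutation p = 0.0286, adjusted 0.0429). After length correction its log2 difference was -0.80. G6pc2 stood at 497 to 695 in obese and 528 to 614 in weight-cycled libraries, a log2 difference of -0.06 that did not pass (exact permutation p = 0.629, also after adjustment). Neither insulin gene passed on its own, with limma adjusted p of 0.925 for Ins1 and 0.998 for Ins2, also as shares of that total. The adjusted p of the 4 ratios that passed sits at the lowest value that 4 of 6 can share. In the exact test it became 0.0571 or more with a pseudocount of 1 or without any library other than weight-cycled replicate 2, while the unadjusted p of the 3 Slc2a2 ratios remained 0.0286.

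**Figure D3:**
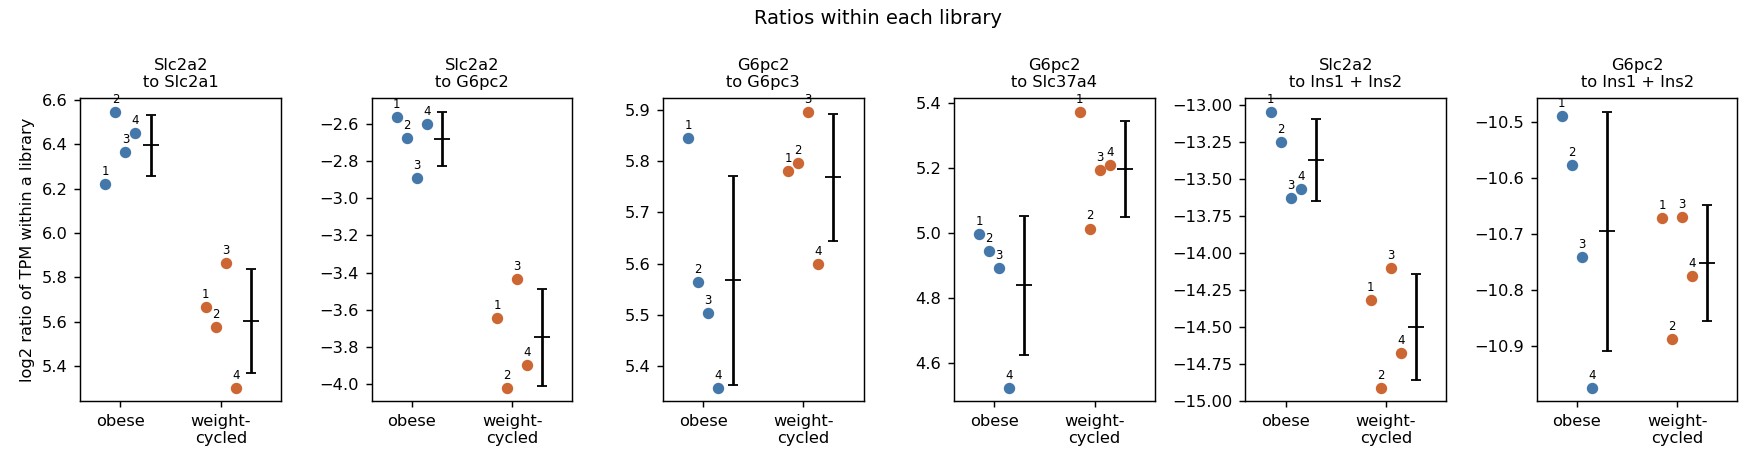
Log2 ratios of TPM within each library for the 6 pairs, with obese libraries in blue and weight-cycled libraries in orange, numbered by replicate. Horizontal bars are group means and vertical bars SDs (n = 4). The 3 ratios of Slc2a2 are lower in every weight-cycled library and the ratio of G6pc2 to Slc37a4 is higher.

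Cell-type markers were compared in the same way on TPM as deposited, where 23.9% of all genes tested were called lower and 1.21% higher, and their part in the change of Slc2a2 was not tested. Of the 9 beta-cell markers, 5 were called lower, among them Slc30a8, the zinc transporter gene of insulin granules (log2 fold change -0.61, limma adjusted p = 0.0303), and the urocortin gene Ucn3 (-0.63, adjusted p = 0.0324). The other 4 beta-cell markers were not called. They were Ins1, Ins2, Iapp and G6pc2, which is itself a member described here. Macrophage markers summed to 54.1 to 68.2 TPM in the obese group and 41.7 to 52.1 TPM in the other, with 3 of 5 tested called lower. Endothelial markers summed to 45.6 to 77.2 and 29.5 to 56.6 TPM, with 2 of 9 called lower. None of these macrophage and endothelial markers had a mean under 0.1 TPM. Alpha-cell markers summed to 4575 to 12326 and 3128 to 8530 TPM, with 2 of 7 called higher and 1 lower, and duct markers to 105 to 129 and 97.5 to 126 TPM, with 2 of 5 called lower. Acinar markers summed to 2082 to 3919 and 2543 to 6244 TPM, with none of 8 called. The endothelial, alpha-cell, duct and acinar sums overlap between the groups. Fap of the alpha-cell, Sox9 and Cftr of the duct and Ptf1a of the acinar list had means under 0.1 TPM. None of the delta-cell (3 tested), PP-cell (2), stromal (3) and erythroid (4) markers was called. Of them 1 stromal and 2 erythroid markers were lower at an unadjusted p under 0.05. After median-of-ratios scaling limma called none of the beta-cell, macrophage, endothelial or duct markers lower. At an unadjusted p under 0.05, 4, 1, 2 and 0 of them were lower and 2, 0, 0 and 2 higher. In that fit 2441 of all 8054 genes tested had such a p, in either direction. After length correction 1 beta-cell marker was called lower and none of the other 3 lists. At an unadjusted p under 0.05, 5 beta-cell, 3 macrophage, 1 endothelial and 1 duct marker were lower, and 1 beta-cell and 1 duct marker higher. Of all 8127 genes tested, 2217 had such a p there, in either direction.

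The genes whose profiles over the 8 libraries lay closest to each member were found by the root mean square difference of centred log2(TPM + 1) values. Slc2a2 was nearest to Mafa, which encodes a beta-cell transcription factor, at a difference of 0.126, against a root mean square deviation of 0.615 for Slc2a2 itself. Fam151a, Camk2n1, Tmem215 and Maob followed, the last at 0.150. For Slc37a4 the nearest were Med17, Smug1, Tmem168, Rcc1l and U2af1, at 0.0601 to 0.0793. For G6pc2 they were Tarbp2, Cwf19l1, Gpr107, Gtf2e1 and Ptbp2 (0.0389 to 0.0636), for G6pc3 Hdac3, Uqcc1, Ddx55, Comtd1 and Dtd1 (0.0365 to 0.0486), and for Slc2a1 Mfsd14b, Katnbl1, Lin52, Alad and Zc2hc1a (0.0244 to 0.0469). These are descriptions over libraries that share the groups' shift, and G6pc3 itself had a root mean square deviation of only 0.138.

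The other genes of glucose entry and use were taken from 7 lists with 102 genes, of which 64 were tested. On TPM as deposited, 29 fell and 2 rose, where 23.9% of all genes tested were called lower and 1.21% higher. The median log2 fold change of the 64 was -0.37 against -0.26 over all genes. The counts of each list below stand against the same shares. Groups did not overlap for 16 lower and 2 higher ones, against 21.1% and 1.3% of all genes. After median-of-ratios scaling 3 of 63 rose (Txnip, Slc2a6 and P4ha2) and none was called lower by limma. At an unadjusted p under 0.05, 15 were lower and 7 higher, where 2441 of all 8054 genes had such a p in either direction. After length correction 2 rose (Txnip and Slc2a6) and 1 fell (Mafa), with 9 higher and 19 lower at an unadjusted p under 0.05. Of all 8127 genes, 2217 had such a p there. Higher calls numbered 2 without obese replicate 4 or weight-cycled replicate 1, and 1 without obese replicate 2, obese replicate 3 or weight-cycled replicate 3. Without any other library limma called none higher, with 2 at an unadjusted p under 0.05. Leaving out weight-cycled replicate 1 raised the number of lower calls to 42, and leaving out obese replicate 4 left 21. Without weight-cycled replicate 3 the number was 1, and without any other library limma called none lower, with 32 to 37 lower at an unadjusted p under 0.05. In those fits 2670 to 3459 of 8007 to 8238 genes tested had such a p in either direction.

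**Figure D4:**
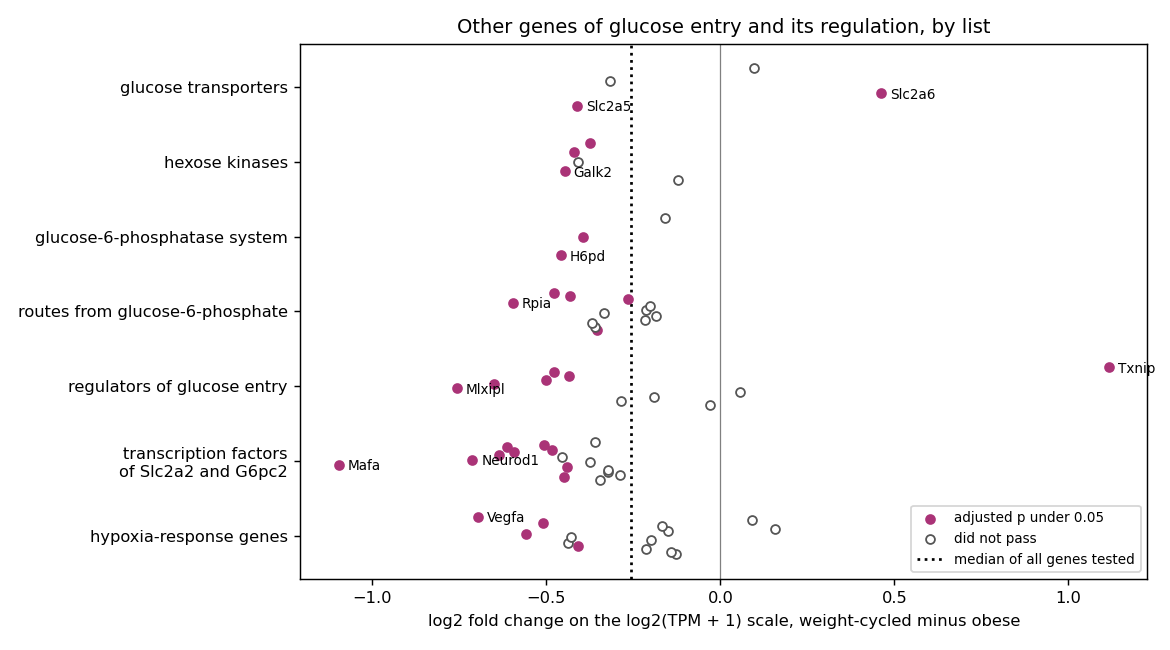
Log2 fold changes (weight-cycled minus obese, TPM as deposited) of the 64 pathway genes tested, 1 point each, by list. Filled points passed an adjusted p of 0.05, the dotted line is the median of all genes tested (-0.26), and the most extreme called genes of each list carry their names, with Txnip far right at 1.12 and Mafa far left at -1.10.

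The classical hexokinase genes were scarcely present. Hk1 had group means of 0.521 TPM (obese) and 0.296 TPM (weight-cycled), and Hk2, Hk3 and Hkdc1 had means over all libraries of 0.00985, 0.0274 and 0.00609 TPM. Of the 10 kinase genes listed, 5 were tested and 3 of them fell on TPM as deposited. These were Khk, the fructose kinase gene, from 11.5 ± 1.27 to 8.29 ± 0.883 TPM (SD, n = 4 each, limma adjusted p = 0.0345), Galk2 and Nagk, the N-acetylglucosamine kinase gene. The median of the 5 was -0.41 as deposited and -0.12 after median-of-ratios scaling.

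The liver glucose-6-phosphatase gene G6pc was practically missing, with a mean of 0.000634 TPM over all libraries, so that G6pc2 and G6pc3 were the phosphatase subunit genes present. Of the other genes of this system on TPM as deposited, Slc37a1, a sugar-phosphate exchanger gene, fell from 5.26 ± 0.589 to 3.79 ± 0.818 TPM (limma adjusted p = 0.0463). H6pd, the gene of the enzyme that oxidises glucose-6-phosphate inside the endoplasmic reticulum, fell from 2.23 ± 0.255 to 1.37 ± 0.424 TPM (adjusted p = 0.0382). Slc37a3 was at 7.99 ± 1.21 and 7.02 ± 0.844 TPM and did not pass (SD, n = 4 each, limma adjusted p = 0.286). After median-of-ratios scaling, quantile scaling or length correction none of these 3 was called, and 1 was lower at an unadjusted p under 0.05. Their median was -0.40 as deposited and -0.13 after median-of-ratios scaling.

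Of 12 tested genes of the routes that lead on from glucose-6-phosphate, 5 fell on TPM as deposited and 7 did not pass. These were Rpia (log2 fold change -0.60), Tkt (-0.43) and Taldo1 (-0.27) of the non-oxidative pentose phosphate pathway, G6pdx (-0.36), whose enzyme oxidises glucose-6-phosphate itself, and Ugp2 (-0.48), which makes UDP-glucose from glucose-1-phosphate. Limma adjusted p lay between 0.0341 for Tkt and 0.0468 for Taldo1. The median of the 12 was -0.35 as deposited and -0.05 after median-of-ratios scaling.

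Regulators of glucose entry held the largest rise of the 7 lists. Txnip, a glucose-induced gene whose protein lowers glucose uptake, rose from 63.0 ± 14.0 to 137 ± 29.7 TPM (SD, n = 4 each), with every weight-cycled library above every obese one. Its log2 fold change was 1.12 as deposited (limma adjusted p = 0.0184), 1.44 with median-of-ratios scaling (0.0219) and 1.41 with length correction (0.0183). The call was lost without obese replicate 1 (1.14, limma adjusted p = 0.0763), weight-cycled replicate 2 (1.02, 0.0542) or weight-cycled replicate 4 (1.18, 0.0566), and without a filter (0.0912). In that order, those fits called 0 of 8010, 39 of 8238, 10 of 8217 and 0 of 19482 genes tested, in either direction. Mlxipl, which encodes the glucose-sensing transcription factor ChREBP, fell from 7.51 ± 1.98 to 4.08 ± 1.44 TPM (limma adjusted p = 0.0353), and Mlx, the gene of its partner, was at 13.4 ± 1.29 and 14.1 ± 2.45 TPM (adjusted p = 0.710). Pfkfb2, whose protein sets the level of a glycolysis activator, fell by 0.65 on the log2 scale and Tigar, an opposing phosphatase gene, by 0.48 (limma adjusted p = 0.0345 and 0.0353). These falls are on TPM as deposited, where 5 of the 10 regulators tested were called lower. After median-of-ratios scaling none was called lower, and 4 were lower at an unadjusted p under 0.05. The list's median was -0.36 as deposited and -0.16 after that scaling.

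Of the 16 tested genes of transcription factors linked to Slc2a2 or G6pc2 expression, 9 fell on TPM as deposited and 7 did not pass. Mafa went from 33.2 ± 7.36 to 15.4 ± 5.54 TPM (SD, n = 4 each). Its log2 fold change of -1.10 was about that of Slc2a2 (limma adjusted p = 0.0302). Neurod1 fell by 0.71 and Nkx6-1 by 0.64 (adjusted p = 0.0345 and 0.0322), and Pax6 and Isl1 fell as well. Mafa passed after quantile scaling (-0.92, limma adjusted p = 0.0408) and after length correction (-0.80, 0.0494) and missed the threshold after median-of-ratios scaling (-0.78, 0.0619). On TPM as deposited it was lost without obese replicate 1 (limma adjusted p = 0.108), obese replicate 2 (0.0861), obese replicate 3 (0.0615), weight-cycled replicate 2 (0.0733) or weight-cycled replicate 4 (0.0788). Those fits called 0 to 39 of the 8007 to 8238 genes tested, in either direction. The list's median was -0.45 as deposited, -0.17 with median-of-ratios scaling and -0.19 with length correction.

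Hypoxia-response genes, some of which respond together with Slc2a1 in other tissues, gave 4 lower calls among 14 tested, near the 23.9% of all genes called lower. These were Vegfa (log2 fold change -0.70), the vascular growth factor gene, Ndrg1 (-0.56), Pfkl (-0.51) and Egln1 (-0.41), with limma adjusted p from 0.0345 to 0.0439. Pgk1, a glycolytic enzyme gene, was at 30.3 ± 2.66 and 32.3 ± 1.74 TPM (SD, n = 4 each) and did not pass (adjusted p = 0.430). The median over the 14 was -0.21 as deposited and 0.05 after median-of-ratios scaling.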

How the data were processed

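Islets were freed with collagenase P and picked by hand, and RNA was enriched by poly-A selection, per the labels' protocols. The authors deposited 1 TPM value per gene and library, with Salmon 1.5.2 and mm10 named as tool and build in the submitters' processing notes. Columns sum to between 999930 and 999949, so TPM are shares of a fixed total. Symbols were found for 35527 of 35596 gene IDs. Coordinates and lengths came from GENCODE M21 (GRCm38).

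Genes with a mean of at least 1 TPM (8127) were tested by limma 3.58.1 in R 4.3.3 on log2(TPM + 1) with a mean-variance trend, two-sided, with Benjamini-Hochberg adjustment at 0.05; the added 1 shrinks fold changes of low genes. The fit was also run on simulated data, drawn gene by gene without a shared shift or length trend, so that run cannot show how calls behave under these. Ratios were compared by exact permutation. Named were the members, of each list the 4 smallest p and the 3 highest means among measured genes, and the 5 nearest profiles, without gene models. Other names were chosen with values known. Members and lists were chosen with earlier results of these data known. Alternatives were pseudocounts, filters, scalings, length correction (loess, span 0.5), variance models, array weights, the replicate block and leaving out each library.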

Additional observations from a re-analysis of the deposited data

Results flagged for a closer look

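In 4 of 94 groups of 4 libraries, 1 library stood apart from the other 3 by Dixon's test, where chance flags about 1 in 20 groups, or 4.7 here. Slc2a1 was at 0.533 TPM in weight-cycled replicate 2 and between 0.731 and 0.767 TPM in the other weight-cycled libraries. Slc37a1 was at 5.01 TPM in weight-cycled replicate 1 and between 3.35 and 3.41 TPM in the others. Mlx reached 17.7 TPM in weight-cycled replicate 4, while the others held 12.6 to 13.4 TPM. Bnip3, a mitophagy receptor gene of the hypoxia list, was lowest in weight-cycled replicate 2 with 25.9 TPM, while the others held 29.6 to 29.8 TPM.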

How the results depend on the processing

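Slc2a2 was lower under all 21 alternatives and passed in 18, and only the missing filter (-1.10, limma adjusted p = 0.0912) and the libraries named above ended the call. Leaving out each library gave log2 fold changes of -1.24 to -0.97 for Slc2a2, -0.19 to -0.07 for Slc2a1, -0.14 to 0.014 for G6pc2 (above 0 without obese replicate 1), -0.42 to -0.36 for Slc37a4 and -0.26 to -0.18 for G6pc3. Without a filter Slc37a4 kept -0.39 (adjusted p = 0.0912). Median-of-ratios scaling gave -0.0026 for Slc2a1, 0.28 for G6pc2, -0.075 for Slc37a4 and 0.070 for G6pc3, and with weight-cycled replicate 1 left out as well 0.014, 0.33, 0.027 and 0.12. Quantile scaling gave -0.19 for Slc37a4 and 0.0099 for G6pc3. Length correction gave 0.19 for G6pc2 and -0.15 for Slc37a4, or -0.068 for Slc37a4 and 0.22 for G6pc2 without weight-cycled replicate 1. Array weights gave 0.036 for G6pc2 and -0.25 for G6pc3 (passed, in a fit that called 4499 of 8127 genes lower). A pseudocount of 0.1 gave -0.29 for Slc2a1. The cause of these shifts was not tested.

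Over all genes, limma called 98 higher and 1946 lower. No filter gave 0 and 0 (5686 at an unadjusted p under 0.05), a filter at 5 TPM 1001 lower, median-of-ratios scaling 46 lower, quantile scaling 173 higher and 124 lower, rescaling without hormone, acinar and mitochondrial genes 733 lower, length correction 124 lower and array weights 296 and 4499. Leaving out a library gave 0 to 270 higher and 0 to 4390 lower genes. Without weight-cycled replicate 1, median-of-ratios scaling gave 1615 higher genes and length correction 1031 higher and 1087 lower. Among the pathway genes, the higher and lower calls were 0 and 0 without a filter (45 lower and 3 higher at an unadjusted p under 0.05), 1 and 18 at 5 TPM, 3 and 0 after median-of-ratios scaling, 4 and 1 after quantile scaling, 1 and 9 after the rescaling, 2 and 1 after length correction and 2 and 46 with array weights. They were 0 to 2 and 0 to 42 with a library left out, and 8 and 17 (median-of-ratios) or 6 and 15 (length correction) without weight-cycled replicate 1.

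With a pseudocount of 1 the log2 ratios were -0.95 for Slc2a2 to Slc2a1, -1.05 for Slc2a2 to G6pc2, -1.10 for Slc2a2 to insulin (exact permutation, adjusted p = 0.0571 each) and 0.33 for G6pc2 to Slc37a4 (0.0857). Leaving out a library gave -0.88 to -0.69, -1.18 to -0.98, -1.26 to -0.99 and 0.25 to 0.42, and -0.15 to 0.012 for G6pc2 to insulin (above 0 without obese replicate 1), which was 0.10 after length correction. Length correction gave -0.90 for Slc2a2 to G6pc2, -0.80 for Slc2a2 to insulin and 0.34 for G6pc2 to Slc37a4 (exact permutation, adjusted p = 0.0476 each). The ratio of Slc2a2 to Slc2a1 was left out of it.

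After each gene's mean within a group was subtracted, same-numbered libraries of the groups correlated at 0.21, -0.28, -0.05 and 0.23. Differently numbered ones correlated at -0.34 to 0.31, so the numbers were not taken to pair the libraries. With the replicate number as a block, limma called 149 genes higher and 2754 lower, and Slc2a2 kept -1.10 (adjusted p = 0.00678). Exact sign-flip permutation tests of the blocked ratios (-0.79, -1.07, 0.36 and -1.13) cannot go below p = 0.125 and adjusted to 0.188.

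Limits are the 4 libraries per group, values without read depth, and a relative shift in the median of the tested genes. Its part in each member's fall was not tested beyond the scalings.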
